A study of Rattus norvegicus with 325 samples.

Results

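The last age step of the diaphragm, 27 against 24 months, was described from 24 of the 83 rat diaphragm libraries of the study, 12 for each age, chosen by the muscle and age in the sample titles. The other libraries were from 3 limb muscles of 7 ages, as 28 groups of muscle and age in all. The diaphragm is the dome-shaped muscle that drives breathing and is active throughout life, with slow and fast fibres side by side. All rats were untreated males of the outbred Sprague Dawley stock, and no genotype or treatment differed between the groups. They had been bought young, kept by the vendor while they grew old, and moved to the study's animal house some weeks before tissue was taken. The tissues of 1 age were taken on 1 day, in a window from morning to early afternoon, so that age and collection day cannot be told apart in any value given here. The labels do not say which libraries of different muscles came from 1 animal, and the replicate numbers name different rats at each age.

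RNA was sequenced after removal of ribosomal RNA and counted per gene. The 24-month libraries held 21.4 to 41.5 M counts (median 32.9) and the 27-month libraries 21.7 to 55.6 M (median 36.9), and the 10 most abundant genes took 16.4 to 18.1% and 16.1 to 20.1% of them. Levels are given as log2 CPM, the count scaled to the M counts of its library and put on a log2 scale, which allows a gene to be compared between libraries but not with another gene, since gene length is not taken into account. The 7 listed skeletal muscle fibre markers summed to 84910 to 97220 CPM at 24 months and 90890 to 110900 CPM at 27 months, and none of them was at 0 in any of these libraries. In whole tissue, fewer cells of a type and less RNA per cell cannot be told apart.

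A muscle fibre that is in contact with its nerve keeps its acetylcholine receptors at the synapse and holds the receptor genes of its other nuclei silent, whereas a fibre that has lost its nerve turns these genes on again together with myogenin and the histone deacetylase Hdac4. Muscle also has a circadian clock of its own, in which Arntl (Bmal1) with Clock or Npas2 turns on the Per, Dbp and Nr1d1 genes, and the products of Per and Nr1d1 hold Arntl and its partners down. Levels of these genes therefore move with the hour of the day at which tissue is taken.

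To ask what changes in the diaphragm at the end of the life span studied, the 12 libraries of 27 months were compared with the 12 of 24 months in limma-voom, in 1 fit with all 83 diaphragm libraries of 7 ages. A gene was called when its Benjamini-Hochberg adjusted p was under 0.05 and its change over 1.5-fold. Of 12035 genes tested 528 were called (4.39%), with 105 higher (0.872%) and 423 lower (3.51%) at 27 months. Past 2-fold were 22 of the higher and 62 of the lower genes. Among the called genes the median size of the change was 0.75 (log2), the median standard error over all genes tested was 0.075, and the median change over all genes tested was -0.01. With the adjusted p alone 4436 genes (36.9%) differed, 1955 higher and 2481 lower.

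No other step between neighbouring ages of the diaphragm had as many calls. There were 13 (0.108% of genes tested) from 6 to 9 months, 12 (0.0997%) from 9 to 12, 103 (0.856%) from 12 to 18 and 65 (0.54%) from 18 to 21 months. From 21 to 24 months limma-voom called 0 genes, and 883 had an unadjusted p under 0.05, against 5435 in the last step. Higher genes made up most calls from 12 to 18 months (73 against 30 lower), while lower genes made up most of those in the last step. Counted from 6 months, 323 genes (2.68%) were called at 24 months and 905 (7.52%) at 27 months. Expression also varied more between the old rats, since the standard deviation of the 12 libraries was larger at 27 than at 24 months for 70.8% of genes (median ratio 1.23).

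**Figure D1:**
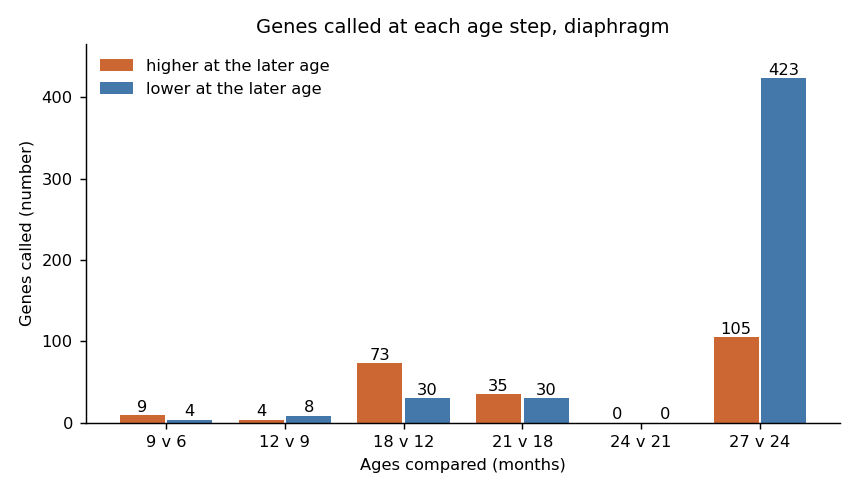
Number of genes called higher (orange) or lower (blue) at the later age, for each step between neighbouring ages of the diaphragm in months. The bars of the last step stand at 105 and 423, and none of the earlier steps has over 73 in either direction.

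Most of the 27-month libraries stood apart on an axis of spread taken from another muscle. The axis came from gastrocnemius libraries of 6 to 21 months after removal of age means, and it held 39.8% of their spread over 8508 genes. No diaphragm library helped to set the size of its gene weights. The sign of an axis is arbitrary. For this axis and those given later it was set so that the 27-month diaphragm libraries had a lower mean score than the 24-month ones. Its leading genes included Cep290, Xirp2, Trdn and Ppig. The 24-month diaphragm libraries scored -0.414 to 7.16 (median 3.22) and the 27-month libraries -26.9 to 3.58 (median -14.8), and 9 of the 12 old libraries lay below every library of 24 months, the exceptions being replicates 4, 5 and 6. Outside these ages, 18-month replicate 11 stood farthest out, at -56.4. Across genes, the gastrocnemius weight on the axis and the last-step change of the diaphragm had a Pearson r of -0.68 and a Spearman rho of -0.62. This is a description over 8508 genes, and its minus sign follows from the way the sign of the axis was set. With that sign, genes with a high weight were mostly lower at 27 months.

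With this score as a covariate, a choice made after seeing the data, 242 genes were called, 100 higher and 142 lower. Of the 105 higher genes 72 kept their call and of the 423 lower genes 83, so that mainly the falls moved with the score. Without 18-month replicate 11 the fit called 519 genes (110 higher, 409 lower). What the score stands for was not tested. The leading axis of the diaphragm's own libraries was taken again without 18-month replicate 11, and then held 13.4% of their spread, led by Mal2, Msln and C3. On it the 27-month libraries scored -13.8 to 14.1 (median -0.567) and the 24-month libraries -7.21 to 12.0 (median -0.015), 3 of the 12 old libraries lay below every library of 24 months, and r with the last-step change across genes was -0.07.

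**Figure D2:**
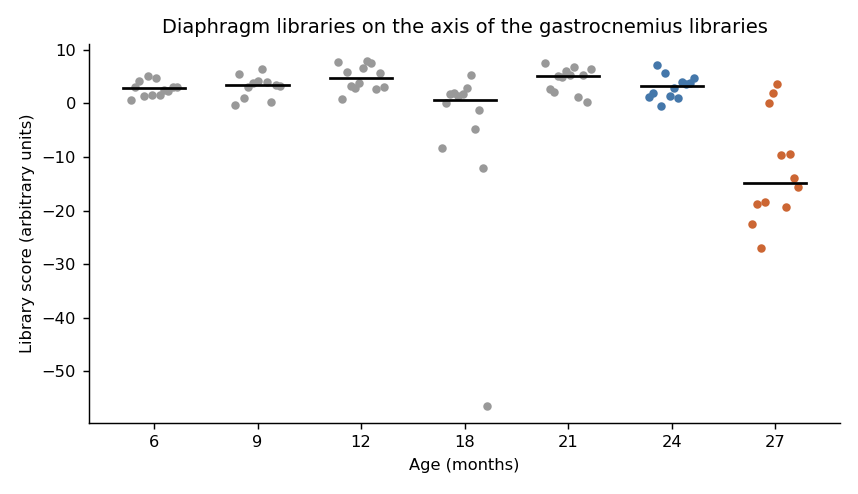
Score of each diaphragm library (points) on the main axis of spread of the gastrocnemius libraries, in arbitrary units, by age in months; black lines are medians. The 24-month libraries (blue) lie between -0.414 and 7.16, while 9 of the 12 libraries of 27 months (orange) lie below all of them. The sign of the score was set so that the 27-month libraries have the lower mean.

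Genes that muscle fibres turn on when the nerve is lost were higher at 27 months. Of the 5 acetylcholine receptor subunit genes of muscle tested, 3 were called higher and none lower, with a median change of 0.97 on the log2 scale against -0.01 over all genes tested. Chrng encodes the gamma subunit, which is made in the embryo and replaced after birth. Its level ran from 0.18 to 3.86 log2 CPM at 24 months (median 1.00) and from 1.18 to 4.52 at 27 months (median 2.85). The age groups overlapped, but all 12 old libraries lay above the 24-month mean, and the change was 1.61 (log2, SE 0.31, adjusted p = 1.9e-05). Chrna1, the gene of the alpha subunit that binds acetylcholine, had levels of 4.23 to 5.61 log2 CPM at 24 months (median 4.67) and 4.57 to 7.72 at 27 months (median 5.74). It rose by 1.19 (SE 0.20, adjusted p = 1.9e-06), with 11 of 12 old libraries above the younger mean. Chrnd, the delta subunit gene, rose by 0.97 (SE 0.16, adjusted p = 5.91e-07), from 4.67 to 5.95 log2 CPM (median 5.17) to 5.41 to 7.15 (median 6.12). The adult epsilon subunit gene Chrne changed by 0.52 (adjusted p = 1.04e-05) and Chrnb1 by 0.23 (adjusted p = 0.00207), both short of 1.5-fold.

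The 250 bases before the start sites of the 3 called subunit genes are shown because their levels moved together and because myogenic factors bind E-boxes of the letters CAGCTG or CACCTG, which are in capitals on either strand (CACCTG reads CAGGTG on the other strand). They were taken from RefSeq on build GRCr8, a later build than that of the counts, at chr9:95325734-95325983 (plus strand), chr3:78877354-78877603 (minus strand) and chr9:95310066-95310315 (plus strand). Chrng held 1 match, Chrna1 3 and Chrnd 1, and 25.8% of all 33469 promoters held at least 1. The motif was added after the data had been seen, and a match is a description of letters, not of binding.
Chrng: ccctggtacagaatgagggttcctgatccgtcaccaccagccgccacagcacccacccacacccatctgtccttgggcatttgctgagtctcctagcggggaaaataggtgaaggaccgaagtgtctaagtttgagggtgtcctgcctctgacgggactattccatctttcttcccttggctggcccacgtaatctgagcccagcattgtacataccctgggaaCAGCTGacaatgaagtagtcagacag
Chrna1: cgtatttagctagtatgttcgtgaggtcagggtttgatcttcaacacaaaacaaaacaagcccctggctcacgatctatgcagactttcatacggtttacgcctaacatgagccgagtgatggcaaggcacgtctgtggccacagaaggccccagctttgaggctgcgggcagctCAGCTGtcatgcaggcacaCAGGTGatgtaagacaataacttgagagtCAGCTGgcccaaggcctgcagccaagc
Chrnd: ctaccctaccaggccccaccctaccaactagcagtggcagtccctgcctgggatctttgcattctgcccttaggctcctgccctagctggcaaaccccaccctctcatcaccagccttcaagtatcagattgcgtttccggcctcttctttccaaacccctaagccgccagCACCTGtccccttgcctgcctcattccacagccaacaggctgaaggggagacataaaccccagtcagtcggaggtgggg

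Among 18 genes that organise the synapse, 2 were called higher and none lower (median change 0.09). Musk, the receptor kinase that gathers acetylcholine receptors under the nerve ending, had levels of 3.05 to 4.28 log2 CPM at 24 months (median 3.64) and 3.26 to 5.04 at 27 months (median 4.24). It rose by 0.60 (SE 0.13, adjusted p = 1.64e-04), close to the 1.5-fold limit, and its call was lost in 10 of the 24 fits that left out 1 library, where the change ranged from 0.53 (without 27-month replicate 5) to 0.69. Nrg1, a neuregulin gene of nerve and muscle, changed by 0.65 at low levels (adjusted p = 0.0234), and lost its call without 24-month replicate 11 (0.55) or replicate 5 (0.56). Ncam1, a cell adhesion gene that marks denervated fibres, changed by 0.39 (adjusted p = 0.00212), short of 1.5-fold.

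Of 15 genes of denervation signalling tested, 7 were called higher and none lower (median change 0.71). Hdac4, which relays loss of nerve activity to the receptor genes, rose by 0.75 (SE 0.10, adjusted p = 3.09e-09), from 5.07 to 6.04 log2 CPM (median 5.33) to 5.65 to 6.76 (median 5.84). The ages overlapped, and all 12 old libraries were above the 24-month mean. Myog, the gene of the transcription factor myogenin, rose by 0.75 (adjusted p = 0.00123), Cdkn1a, a cell cycle inhibitor gene, by 0.84 (adjusted p = 5.54e-06) and Sln, which encodes the calcium pump inhibitor sarcolipin, by 0.69 (adjusted p = 4.32e-06). Runx1, a transcription factor gene that responds to denervation, rose by 0.72 (SE 0.23, adjusted p = 0.00896) with 8 of 12 old libraries above the younger mean, and was not past 1.5-fold without 27-month replicate 0 (0.58) or replicate 5 (0.56). The call of Runx1 was also lost with only 24 and 27 months in the fit (0.73, adjusted p = 0.129) and with sample quality weights (0.51). Gadd45a, a target of Hdac4 signalling, rose by 0.71 (SE 0.20, adjusted p = 0.0037).

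With the library score as a covariate the counts in these lists were the same as without it, 3 of 5, 2 of 18 and 7 of 15. Chrng then rose by 1.93, Chrna1 by 1.34 and Musk by 0.87 on the log2 scale. Leaving out any 1 of the 24 libraries left Chrng between 1.42 and 1.90, with the call kept in all 24 fits for Chrng, Chrna1, Chrnd, Hdac4, Myog, Cdkn1a and Sln.

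**Figure D3:**
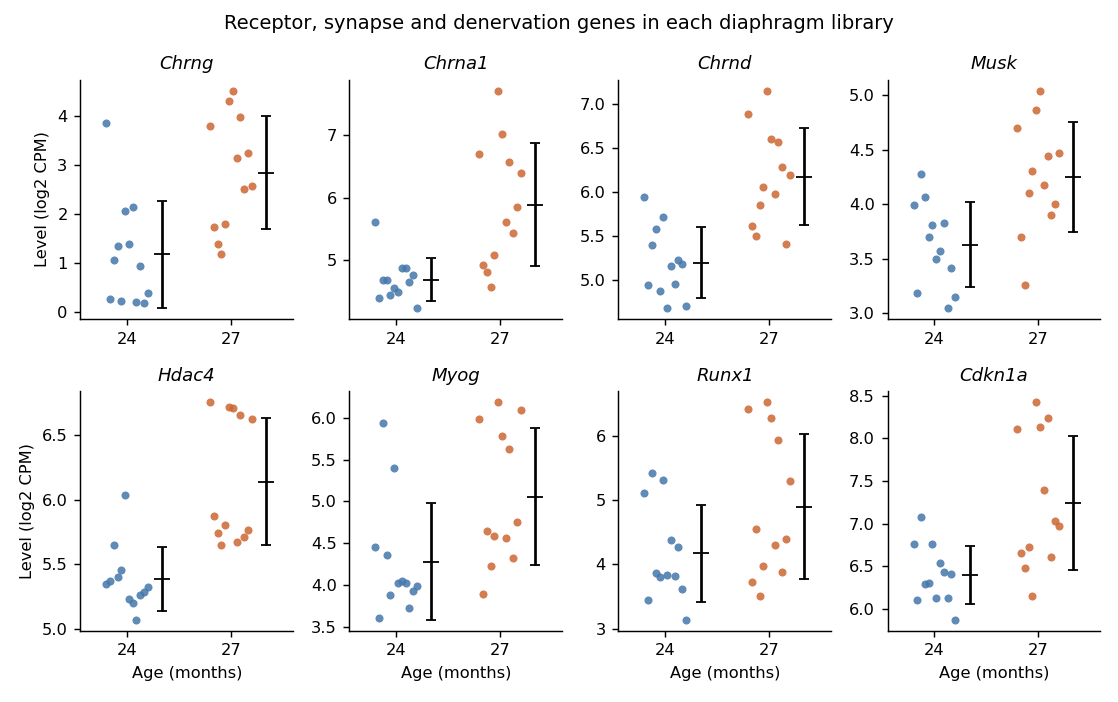
Level of 8 genes of the receptor, synapse and denervation lists in each diaphragm library in log2 CPM at 24 (blue) and 27 months (orange), with the mean and SD of 12 libraries beside the points; the vertical axes differ between panels. For Hdac4 the old libraries form a set of 5 from 6.63 to 6.76 and a set of 7 from 5.65 to 5.88.

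These rises were not even over the old rats. The 5 highest levels of Hdac4 at 27 months were 6.63 to 6.76 log2 CPM, in replicates 0, 5, 6, 8 and 11, and the other 7 libraries lay from 5.65 to 5.88. The same 5 libraries held the 5 highest levels of Chrna1 (6.39 to 7.72, the others 4.57 to 5.85), Runx1 (5.30 to 6.52, the others 3.51 to 4.56), Myog (5.63 to 6.19, the others 3.89 to 4.76) and Gadd45a (5.51 to 6.48, the others 3.78 to 4.62). They also held the 5 highest levels of Musk, Ncam1, Mt1a and the ubiquitin ligase gene Trim63. Other genes shared the set in part, with 4 of the 5 libraries among the highest for Chrng, Chrnd and Cdkn1a and 3 for Sln and Myh3. The 5 libraries were singled out after their values were seen and carry no label of their own. Their library scores ran from -22.6 to 3.58, almost the whole range of the age. At 24 months Runx1 was highest in replicates 2, 5 and 0 (5.42, 5.31 and 5.11 log2 CPM).

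Clock genes changed in both directions. Of 15 tested, 4 were called higher and 4 lower, with a median change of 0.11 on the log2 scale. Arntl, whose product turns on the clock, had levels of 3.14 to 5.81 log2 CPM at 24 months (median 5.01) and 2.55 to 4.06 at 27 months (median 3.11). It fell by 1.58 (log2, SE 0.26, adjusted p = 1.59e-06), and all 12 old libraries lay below the 24-month mean, with overlap between 3.14 and 4.06. Its partner Clock fell by 1.06 (SE 0.10, adjusted p = 1.07e-12), from 7.30 to 8.08 log2 CPM (median 7.83) to 6.36 to 7.47 (median 6.62). Over the alternatives with the 1.5-fold rule the change of Clock ran from -1.13 to -0.68, with the call kept. Replicates 4, 5 and 6, whose library scores lay in the 24-month range, were among the 5 highest old libraries for Clock. Npas2, which can take the place of Clock, fell by 0.88 (adjusted p = 8.97e-05), and Nr1d1, the gene of the repressor REV-ERB alpha, fell by 0.69 (adjusted p = 9.76e-05).

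Per2, which encodes a repressor of Arntl and Clock, rose by 1.16 (log2, SE 0.21, adjusted p = 7.3e-06). Its levels were 5.31 to 7.12 log2 CPM at 24 months (median 6.06) and 6.72 to 7.68 at 27 months (median 7.39), so that the ages overlapped only between 6.72 and 7.12. Per1 rose by 0.96 (SE 0.22, adjusted p = 2.69e-04) and Per3 by 0.80 (SE 0.15, adjusted p = 1.15e-05). Dbp, a transcription factor gene driven by the clock, rose by 0.76 (SE 0.26, adjusted p = 0.0145), a call that was lost with the library score as a covariate (0.53, adjusted p = 0.163). Tef and Cry2 changed by 0.56 and 0.41, short of 1.5-fold, and Cry1, Nr1d2, Nfil3 and Bhlhe40 by 0.11, -0.09, -0.04 and 0.03. The mean level of Arntl was 5.80 log2 CPM at 6 months (SD 0.31, n = 12), 4.74 at 24 months (SD 0.79, n = 12) and 3.15 at 27 months (SD 0.50, n = 12).

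**Figure D4:**
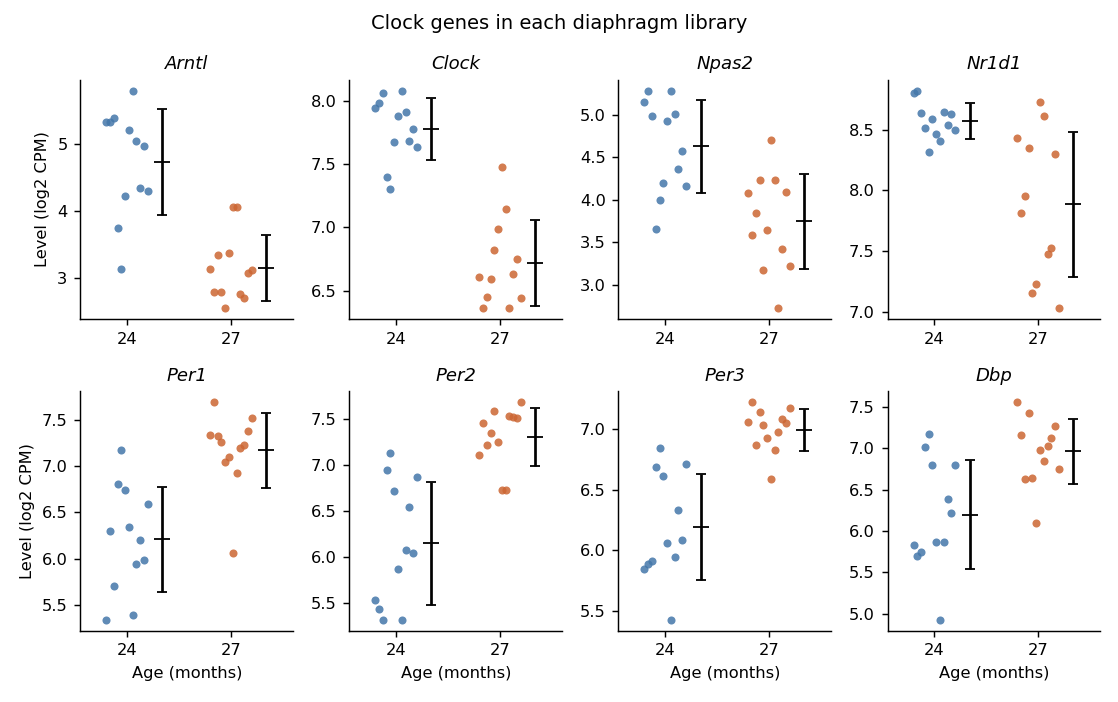
Level of the 8 called clock genes in each diaphragm library in log2 CPM at 24 (blue) and 27 months (orange), with mean and SD of 12 libraries; the vertical axes differ between panels. Arntl, Clock, Npas2 and Nr1d1 sit lower and Per1, Per2, Per3 and Dbp higher at 27 months.

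At 24 months the level of Arntl followed that of Clock and ran against those of Per2, Dbp and Ciart. Over the 12 libraries of 24 months Arntl and Per2 had a Pearson r of -0.951 and a Spearman rho of -0.979, and without the 2 libraries farthest from the median of Arntl r was -0.964. Arntl and Clock had an r of 0.981 and a rho of 0.979, and r without the 2 farthest was 0.958. For both pairs the permutation p of r and of rho (two-sided, 100000 resamples) was 2e-05, the smallest that these resamples can give, and the p adjusted over 14 relations was 5.6e-05. At 27 months, r of Arntl and Per2 was -0.88 (permutation p = 0.00146, adjusted p = 0.00292) and rho -0.783 (permutation p = 0.00402, adjusted p = 0.00804), and without the 2 farthest libraries r was -0.559. That of Arntl and Clock was 0.736 (permutation p = 0.0146, adjusted p = 0.0205; rho 0.455, permutation p = 0.141, adjusted p = 0.179) and went to 0.149 without them, so this relation rests on the 2 farthest libraries. Arntl and Dbp had an r of -0.952 and a rho of -0.979 at 24 months (adjusted p = 5.6e-05 for both, permutation tests). At 27 months their r was -0.234 (permutation p = 0.45, adjusted p = 0.484) and rho -0.273 (permutation p = 0.388, adjusted p = 0.418). Arntl and Ciart had an r of -0.948 and a rho of -0.986 at 24 months (adjusted p = 5.6e-05 for both, permutation tests), and at 27 months an r of -0.03 (permutation p = 0.916) and a rho of -0.056 (permutation p = 0.867). Arntl and Nr1d1 had an r of 0.506 (adjusted p = 0.107) and a rho of 0.378 (adjusted p = 0.266, permutation tests) at 24 months, and 0.58 (adjusted p = 0.0607) and 0.531 (adjusted p = 0.113, permutation tests) at 27 months. Whether the relations differ between the ages was not tested, and the hour at which each rat was taken is not given in the labels.

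The promoters of Arntl and Per2 are shown as the genes of opposite direction. In the 250 bases before the start site, Arntl at chr1:176766078-176766327 (plus strand) held AGGTCA, a site read by REV-ERB and ROR receptors, and Per2 at chr9:99496994-99497243 (minus strand) held TTATGTAA, a D-box read by Dbp, both in capitals and searched on both strands, in RefSeq on build GRCr8. AGGTCA was in 14.1% of the 33469 promoters, a D-box (TTATGTAA or TTACGTAA) in 0.932% and the E-box CACGTG in 5.59%. Of the 15 clock genes tested 14 had a promoter in the table, with the E-box in 4 of them, AGGTCA in 2 and a D-box in 1. None of these letter strings contains another.
Arntl: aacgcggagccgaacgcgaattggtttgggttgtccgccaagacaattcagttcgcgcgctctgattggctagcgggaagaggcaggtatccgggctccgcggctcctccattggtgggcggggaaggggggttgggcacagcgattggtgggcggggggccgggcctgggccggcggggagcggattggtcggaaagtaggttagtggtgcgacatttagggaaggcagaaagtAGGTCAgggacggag
Per2: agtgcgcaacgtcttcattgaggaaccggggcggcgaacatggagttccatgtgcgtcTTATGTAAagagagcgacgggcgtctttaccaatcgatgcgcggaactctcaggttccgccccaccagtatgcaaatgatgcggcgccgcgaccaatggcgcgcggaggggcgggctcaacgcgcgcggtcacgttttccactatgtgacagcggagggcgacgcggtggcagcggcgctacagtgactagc

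Of 20 genes of the response to glucocorticoids and fasting, 4 were called higher and none lower, with a median change of 0.41 on the log2 scale. Mt1a, a metallothionein gene that responds to metals and stress hormones, had the largest rise among genes with a mean level over 0 log2 CPM. Its levels were 1.36 to 4.33 log2 CPM at 24 months (median 2.02) and 2.50 to 5.42 at 27 months (median 3.47), and it rose by 1.68 (SE 0.29, adjusted p = 2.67e-06). All 12 old libraries lay above the 24-month mean, although the ages overlapped. Mt2A, its near relative, changed by 0.95 (SE 0.34, adjusted p = 0.02), and lost its call without 27-month replicate 5 (0.75). The call of Mt2A was also lost in edgeR (0.53, adjusted p = 0.34), in DESeq2 (0.50, adjusted p = 0.385), with only 24 and 27 months in the fit (0.95, adjusted p = 0.0969), with sample quality weights (0.67, adjusted p = 0.126) and with the replicate block (0.98, adjusted p = 0.0877). How reads of these similar genes were divided is not known. Cebpd, a transcription factor gene, rose by 0.72 (SE 0.16, adjusted p = 1.79e-04), and Pdk4, which holds back the burning of glucose, by 0.60 (SE 0.24, adjusted p = 0.0386). Leaving out 1 library ended the call of Pdk4 in 9 of 24 fits, with a lowest value of 0.49 without 27-month replicate 4.

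Of 16 p53 targets and cell cycle inhibitors 3 were called higher (median change 0.04), Cdkn1a, Phlda3, an inhibitor of Akt signalling, with 0.77 on the log2 scale (adjusted p = 6.35e-08), and Gadd45g, a growth arrest gene, with 0.72 (adjusted p = 0.00716). Of 23 growth hormone and Igf genes 1 was called, Igf2, a growth factor gene, which rose by 0.72 (SE 0.11, adjusted p = 2.12e-07). The 9 developmental sarcomere genes held 2 higher calls. Myh3, the embryonic myosin heavy chain gene, went from 4.83 to 5.98 log2 CPM (median 5.28) to 5.07 to 8.62 (median 6.01) and rose by 0.88 (SE 0.22, adjusted p = 9.43e-04). Tnnt2, the embryonic and cardiac troponin T gene, rose by 0.98 (SE 0.28, adjusted p = 0.00364). None of the 16 ubiquitin ligase and atrophy genes was called (median change 0.16), and Trim63 changed by 0.32 (adjusted p = 0.0198) and Fbxo32 by -0.02 (adjusted p = 0.892). Of 23 heat shock and folding genes 2 were called lower, Hsp90aa1 with -0.62 and Hsp90b1 with -0.60, calls that were lost in 2 and 10 of 24 fits without 1 library, and both were within 1.5-fold with the library score as a covariate (-0.09 and -0.20).

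The falls were more numerous than the rises and included those of Trdn, Nexn and Xirp2. Trdn encodes triadin, which anchors the calcium release complex of the sarcoplasmic reticulum. Its level was 10.99 to 11.32 log2 CPM at 24 months (median 11.1) and 9.04 to 10.91 at 27 months (median 9.74), with no overlap, and it fell by 1.19 (log2, SE 0.13, adjusted p = 8.11e-11). Nexn, whose product nexilin binds actin at the Z-disc, fell by 1.24 (SE 0.14, adjusted p = 1.13e-10), also without overlap, from 7.62 to 7.94 log2 CPM to 5.73 to 7.55. Xirp2, the gene of another actin-binding protein of the sarcomere, fell by 1.15 (SE 0.15, adjusted p = 8.19e-09), and the ages overlapped by 2 old libraries, replicates 5 and 6. Trdn and Xirp2 are also leading genes of the library score, and the 3 old libraries with scores in the 24-month range, replicates 4, 5 and 6, had the 3 highest levels of both. With the score as a covariate, the changes were -0.59 for Trdn (adjusted p = 8.04e-10), -0.58 for Nexn and -0.53 for Xirp2, the last 2 within 1.5-fold.

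Groups that did not overlap were seen for 118 of all genes tested (0.98%), and for 50 of the 528 called genes, 49 of them lower. The widest gap between the ages among called genes was that of Cav2, the gene of caveolin-2 of the cell membrane, with 6.69 to 7.07 log2 CPM at 24 months and 5.38 to 6.47 at 27 months, a fall of 1.03 (log2, SE 0.10, adjusted p = 1.87e-13). Ppig, a nuclear cyclophilin gene, fell by 1.12, Smc6, a gene of chromosome maintenance, by 1.06, Kcnab1, a potassium channel subunit gene, by 1.03 and Ebag9 by 0.74. The called gene higher at 27 months in all libraries was Hdhd2, which rose by 0.68 (SE 0.12, adjusted p = 2.15e-06), from 2.10 to 2.98 log2 CPM to 3.14 to 3.49. With the score as a covariate Cav2 fell by 0.58, Ppig by 0.42, Smc6 by 0.47 and Ebag9 by 0.32, all within 1.5-fold, while Kcnab1 (-0.65) and Hdhd2 (0.85) were still called.

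Other large falls among genes with a mean level over 0 log2 CPM were those of B3gnt5, a glycolipid enzyme gene (-1.65, SE 0.41, adjusted p = 7.51e-04), Smc4, a condensin gene (-1.37, SE 0.15, adjusted p = 7.05e-11), Dmrta1 (-1.18), the lymphocyte receptor gene Cd226 (-1.17) and Lrat, which stores retinol as an ester (-1.12). Prrt4 (1.62), Tmem158 (1.34), Sectm1b (1.08) and the adhesion gene Flrt1 (1.00) were other large rises. The call of Lrat was lost with the score as a covariate (-0.55), and those of the other genes named in this group were kept. The call of Sectm1b was lost in edgeR (0.85, adjusted p = 0.0536) and DESeq2 (0.83, adjusted p = 0.0554), and that of B3gnt5 in DESeq2 (-1.08, adjusted p = 0.051). Tfrc, the transferrin receptor gene through which cells take up iron, fell by 0.83 (SE 0.11, adjusted p = 1.93e-08), from 6.51 to 7.26 log2 CPM (median 6.99) to 5.64 to 6.89 (median 6.08), and by 0.47 with the score as a covariate. Pnpla3, a lipid droplet enzyme gene, fell by 1.04 (SE 0.25, adjusted p = 5.17e-04), and Pfkfb3, a regulator of glycolysis, by 0.76 (SE 0.21, adjusted p = 0.00249).

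Of 9 B cell and plasma cell markers tested 7 were called lower at 27 months, with a median change of -1.59 on the log2 scale. Cr2, the complement receptor of B cells and follicular dendritic cells, had levels of -1.01 to 2.52 log2 CPM at 24 months (median 0.59) and -3.98 to 0.47 at 27 months (median -1.86), and it fell by 2.44 (SE 0.62, adjusted p = 0.00103). The B cell gene Pax5 fell by 2.03 (SE 0.62, adjusted p = 0.00668), and Bank1, a scaffold gene of B cell signalling outside this list, by 1.22 (adjusted p = 0.0177). The 2 that were not called are the plasma cell genes Mzb1 (0.20, adjusted p = 0.768) and Derl3 (0.91, adjusted p = 0.0778). The calls of Pax5 and Bank1 were lost in edgeR (-1.20, adjusted p = 0.104, and -0.62, adjusted p = 0.336) and in DESeq2 (-1.20, adjusted p = 0.168, and -0.59, adjusted p = 0.386). Levels were low, with a median count of 42.5 for Cr2 at 24 months and 10.5 at 27 months, and 4 old libraries had no count of Pax5. Summed over the list, the markers made up 2.56 to 21.5 CPM at 24 months (median 6.24) and 1.22 to 14.9 CPM at 27 months (median 1.56). Of the old libraries, replicates 2, 6 and 7 reached the range of the younger ones for Cr2 and had the 3 highest levels of Pax5. The 24-month level was itself the highest of the 7 age means for Cr2, 0.66 log2 CPM against -2.69 at 6 months, -1.30 at 21 months and -1.84 at 27 months. With the library score as a covariate 7 of 9 were called again, with a median of -2.17.

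Markers of other immune cells gave no calls in the main fit. The T cell marker Cd5, at low levels, was called lower in edgeR, in DESeq2 and with either library score as a covariate. The lists without calls in the main fit were 12 macrophage genes (median change -0.02), 10 T cell genes (-0.07), 4 neutrophil genes (-0.12) and 10 genes of MHC class II (-0.10). Summed macrophage markers were 254 to 663 CPM at 24 months and 356 to 941 CPM at 27 months. Of 34 interferon response genes 2 were lower (median change -0.19), a called share of 5.88% that is near the 4.39% of all genes tested. With the library score as a covariate 1 gene of this list was called higher and 1 lower. Ifit2, which binds viral RNA, had levels of 4.62 to 5.45 log2 CPM at 24 months and 3.22 to 4.50 at 27 months, without overlap, and fell by 1.09 (SE 0.13, adjusted p = 5.11e-10), or by 0.62 with the score as a covariate. Rsad2, the viperin gene, fell by 0.59 (SE 0.14, adjusted p = 4.27e-04), at the 1.5-fold limit, and was under it in 8 of 24 fits without 1 library, down to -0.52 without 24-month replicate 2. With the score as a covariate Rsad2 changed by -0.44 (adjusted p = 0.0232). Ccl21, a chemokine gene of lymphatic vessels, rose by 0.77 (SE 0.16, adjusted p = 8.56e-05), with all 12 old libraries above the younger mean.

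Matrix and vessel genes were mostly lower where they changed. Col5a3, a collagen V chain gene, fell by 0.87 (log2, SE 0.12, adjusted p = 5.42e-08) and was the 1 called of 15 collagens (median change -0.07). Ogn, which encodes the small proteoglycan osteoglycin, fell by 0.85 (SE 0.12, adjusted p = 1.95e-08), or by 0.36 with the score as a covariate. The pericyte gene Rgs5 fell by 0.81 without overlap (SE 0.08, adjusted p = 6.21e-12), or by 0.50, within 1.5-fold, with the score as a covariate. None of 12 endothelial markers was called (median change -0.16), and the 12 markers summed to 1167 to 1355 CPM at 24 months and 1036 to 1212 CPM at 27 months.

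Tendon markers Kera and Tnmd fell by 2.02 (SE 0.72, adjusted p = 0.0209) and 1.38 (SE 0.54, adjusted p = 0.0378), as 2 of 7 markers of this tissue. Kera ran from -6.01 to 6.61 log2 CPM in the old libraries, with 0 counts in replicate 10. Without that library the change of Kera was -1.50 and no longer called, and the call of Tnmd was lost in 11 of 24 such fits, with -1.17 without 27-month replicate 8 as the smallest change. With the score as a covariate neither was called (-1.61 and -1.10), and the call of Kera was also lost in edgeR (-1.06, adjusted p = 0.0885) and DESeq2 (-1.05, adjusted p = 0.103). Liver transcripts, which can reach the diaphragm from the organ it touches, summed to 56.5 to 576 CPM at 24 months and 73.0 to 148 CPM at 27 months, and none of 10 was called (median change -0.69). Mesothelial markers, from the lining of the diaphragm, summed to 21.9 to 106.7 and 10.97 to 131 CPM, with none of 8 called. Among 12 Schwann cell markers S100b (-0.62) and Cdh19 (-0.59) were called lower, and both calls were lost in 7 and 11 of 24 fits without 1 library, at smallest changes of -0.55 without 24-month replicate 8 and -0.53 without 27-month replicate 0. With the score as a covariate Cdh19 changed by -0.17 (adjusted p = 0.439) and S100b by -0.85. S100b was within 1.5-fold in edgeR (-0.53) and DESeq2 (-0.51), and Cdh19 was within it under both other scalings, under both other filters and with only 24 and 27 months in the fit (-0.57 to -0.58). The call of S100b was also lost with the replicate block and with sample quality weights.

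Fibre type and energy genes changed little. None of 20 fast fibre genes was called (median change 0.03), and the adult myosin genes Myh7, Myh2, Myh1 and Myh4 changed by 0.21, 0.15, -0.24 and 0.08 on the log2 scale, with a standard error of 0.49 for Myh4. Of 18 slow fibre genes 1 was called, Sln. No gene was called among 34 of respiratory complex I (median change 0.13), 32 of complexes II to V (0.10) and 28 of fatty acid uptake and oxidation (0.19). Small shifts upward were common there, since 20, 17 and 15 of these genes were higher by the adjusted p alone and 1, 4 and 1 lower, where over all genes tested 36.9% passed it. Cox6a2, a muscle subunit gene of cytochrome oxidase, had 10.2 to 10.5 log2 CPM at 24 months and 10.6 to 10.8 at 27 months, without overlap, a change of 0.38 (SE 0.05, adjusted p = 5.04e-09). Cycs, the cytochrome c gene, changed by -0.49 (adjusted p = 7.31e-07).

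To ask whether the last step of the diaphragm differs from that of the limb muscles, the difference of the steps was tested in 1 fit of all libraries of the 4 muscles. Of 12784 genes 413 (3.23%) differed from the gastrocnemius by the same call rule, 459 (3.59%) from the soleus and 448 (3.5%) from the tibialis anterior. The change was lower in the diaphragm for 357, 266 and 324 of them. Of the 105 rises and 423 falls of the diaphragm, 17 and 232 differed in their own direction from the gastrocnemius, 11 and 46 from the soleus, and 6 and 64 from the tibialis anterior. The rises and falls were called in the same diaphragm libraries that enter the differences, which favours a difference in their own direction. These counts are therefore a description only. The gastrocnemius had 71 higher and 13 lower genes in its own last step in this fit, with 9 libraries at 24 and 11 at 27 months. Its libraries carry running numbers of their own series in the labels, and that series and the muscle cannot be told apart. Its library scores were -15.2 to 24.5 at 24 months and -1.81 to 19.1 at 27 months, and with the score as a covariate 274 genes differed.

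Of the receptor genes, Chrng, Chrna1 and Chrnd separated the diaphragm from the gastrocnemius. In this fit Chrng changed by 1.66 in the diaphragm and 0.12 in the gastrocnemius (difference 1.54, SE 0.46, adjusted p = 0.00894), Chrna1 by 1.24 and 0.02 (difference 1.22, adjusted p = 0.0152) and Chrnd by 1.02 and -0.06 (difference 1.08, adjusted p = 4.88e-04). With only 24 and 27 months in the fit the difference of Chrng was 1.47 and not called (adjusted p = 0.165). Hdac4, Myog, Runx1 and Mt1a also differed from the gastrocnemius, by 0.72, 0.74, 0.96 and 1.37 on the log2 scale. None of these 7 genes differed by the call rule from the soleus or the tibialis anterior. Chrne (difference 0.35), Chrnb1 (0.19), Musk (0.46), Cdkn1a (0.76), Ncam1 (0.40) and Sln (0.12) did not differ by the call rule from the gastrocnemius. Clock fell more in the diaphragm than in the gastrocnemius (difference -0.64, adjusted p = 3.43e-05), and so did Trdn (-1.22), Xirp2 (-1.44), Ifit2 (-1.07), Kera (-1.83) and Tnmd (-1.51). The difference of Kera was not called in edgeR (-0.87, adjusted p = 0.177) or with the replicate block (-1.51, adjusted p = 0.0545).

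**Figure D5:**
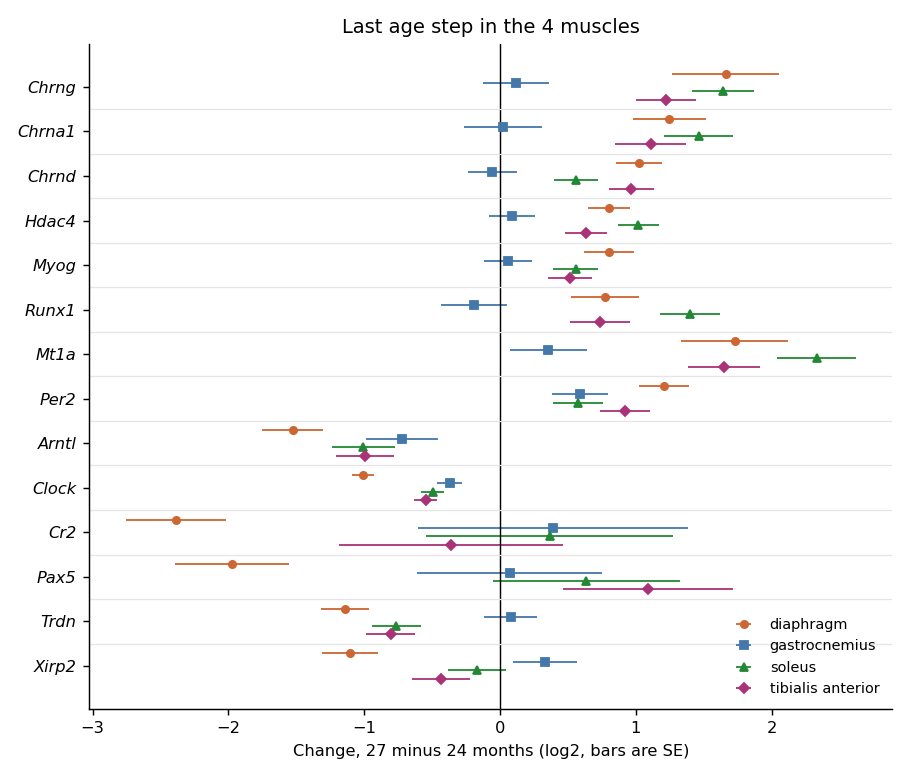
Change of 14 genes from 24 to 27 months in each of the 4 muscles on the log2 scale (points, with bars for SE), from 1 fit of all libraries. Chrng, Chrna1, Chrnd, Hdac4, Myog and Runx1 lie near 0 in the gastrocnemius (blue squares), and Cr2 and Pax5 lie lowest in the diaphragm (orange circles).

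Against the soleus, large differences among genes called in the diaphragm, with a mean level over 0 log2 CPM in both muscles, were those of Emb, the gene of embigin, a membrane glycoprotein (-2.75, SE 0.77, adjusted p = 0.00596), and Hcn4, a pacemaker channel gene (1.89, SE 0.39, adjusted p = 1.07e-04). In this fit Emb changed by -0.76 in the diaphragm (SE 0.72, adjusted p = 0.44) and 1.99 in the soleus, and its difference was not called with only 24 and 27 months (-2.78, adjusted p = 0.112). Hcn4 changed by 0.70 in the diaphragm (SE 0.36, adjusted p = 0.115) and -1.19 in the soleus. In the fit of the diaphragm alone the call of Hcn4 was lost with the score as a covariate (0.44, adjusted p = 0.062). The fast myosin genes Myh1 and Myh4 and the fast light chain gene Mylpf rose in the soleus by 2.75, 2.69 and 1.72 and changed in the diaphragm by -0.18, 0.13 and 0.23, with differences of -2.94, -2.56 and -1.49. The soleus also parted from the diaphragm in Cpt2, a gene of fatty acid oxidation (difference 0.90), Cox6a2 (0.73), Tnmd (-1.13) and Xirp2 (-0.94). Against the tibialis anterior, Chac1, a gene of glutathione breakdown (1.25, adjusted p = 0.04), Prima1, an anchor of acetylcholinesterase (1.23, adjusted p = 2.68e-05), and Chrdl1, an inhibitor of bone morphogenetic proteins (-1.16, adjusted p = 2.09e-05), differed most. The difference of Chac1 was not called in edgeR (1.01, adjusted p = 0.0708), under both other scalings (1.19 and 1.07), with only 24 and 27 months (1.18, adjusted p = 0.0948) or with the replicate block (1.16, adjusted p = 0.0501). Myh3 rose by 2.03 there against 0.93 in the diaphragm (difference -1.10, adjusted p = 0.0441), and S100b changed by 0.57 against -0.57 (difference -1.14). The B cell genes also differed, with Cr2 at -2.78 against the gastrocnemius (adjusted p = 0.0482) and -2.76 against the soleus (adjusted p = 0.037), Pax5 at -2.61 against the soleus and -3.06 against the tibialis anterior, and Fcrla (-2.09) against the tibialis anterior.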

How the data were processed

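The authors deposited raw counts per gene for each library. According to the study's methods, libraries were strand-specific, depleted of ribosomal RNA and sequenced as paired ends, and the reads were mapped with ArrayStudio to the rat 6.0 reference with an in-house gene model from RefSeq. The version of ArrayStudio is not given in the sources used here. Each file held 17870 gene lines for 17315 symbols. The counts of lines with 1 symbol were summed, which touched 494 symbols on 1049 lines holding 2.17% of the counts of these libraries.

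Genes were filtered with filterByExpr (minimum count 10, minimum total 15), scaled by TMM in edgeR 4.0.16 and tested with limma 3.58.1 (voom) in R 4.3.3, two-sided, with Benjamini-Hochberg adjustment over all genes tested. The fit held the 83 diaphragm libraries with 1 mean per age, as the study fitted each tissue with all ages. Differences between muscles were tested in a fit of all 325 libraries with 28 groups. Levels are log2 CPM with a prior count of 0.5. The diaphragm libraries of all ages held 18.1 to 66.5 M counts, and precision is set by the number of rats as well as by depth. No pair of libraries of 1 age agreed within sampling noise, and replicates are separate samples in the labels. The calculation was tested on simulated data.

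Named genes were the 12 largest rises and 12 largest falls among called genes with a mean over 0 log2 CPM, up to 4 called members of each list (or 2 where none was called), a fixed panel, the 3 largest differences from each other muscle and the 6 widest gaps between ages. Others were added to complete a list or a comparison after their values were seen. They were Gadd45a, Npas2, Nr1d1, Dbp, Ciart, Tef, Cry1, Cry2, Nr1d2, Nfil3, Bhlhe40, Mzb1, Derl3 and genes of the difference tests. Some genes that the rule names are not reported here. The comparison, the lists and the rules were chosen with earlier results of these data known. The alternatives were edgeR's quasi-likelihood test, DESeq2 1.42.0, Bonferroni adjustment, other scalings, filters, folds and samples, library weights, a replicate block, and each library left out in turn. The covariates from library scores were added after seeing the data. Names and promoters came from a RefSeq table of build GRCr8, where 11182 of the 12035 tested genes matched a current symbol, 690 a synonym only and 9700 had a promoter.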

Additional observations from a re-analysis of the deposited data

Results flagged for a closer look

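The difference between the last step of the diaphragm and that of another muscle was tested for every gene in limma-voom, and these differences (diaphragm minus the other muscle, log2 scale) passed the call rule. In all, 413 genes differed from the gastrocnemius, 459 from the soleus and 448 from the tibialis anterior. The running numbers in the labels set the gastrocnemius libraries apart from those of the other muscles, so muscle and series cannot be told apart there.

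Against the gastrocnemius, some of the genes that respond to the nerve had a larger change in the diaphragm, while Chrne, Chrnb1, Musk, Cdkn1a, Ncam1 and Sln did not differ. The difference was 1.54 for Chrng, 1.22 for Chrna1, 1.08 for Chrnd, 0.72 for Hdac4, 0.74 for Myog and 0.96 for Runx1, and it was 1.37 for the metallothionein gene Mt1a. Lower changes in the diaphragm were those of Kera (-1.83), Tnmd (-1.51), Clock (-0.64), Cr2 (-2.78), Trdn (-1.22), Xirp2 (-1.44) and Ifit2 (-1.07).

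Against the soleus, the differences were -2.75 for Emb, 1.89 for Hcn4, -2.76 for Cr2, -2.61 for Pax5, -1.13 for Tnmd and -0.94 for Xirp2. Fibre and energy genes differed by -2.94 for Myh1, -2.56 for Myh4, -1.49 for Mylpf, 0.90 for Cpt2 and 0.73 for Cox6a2.

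Against the tibialis anterior, the differences were 1.25 for Chac1, 1.23 for Prima1, -1.16 for Chrdl1, -3.06 for Pax5, -2.09 for Fcrla, -1.10 for Myh3 and -1.14 for S100b. The call was lost for Chrng and Emb with only 24 and 27 months in the fit, for Kera in edgeR and with the replicate block, and for Chac1 in edgeR, under both other scalings, with only 24 and 27 months and with the replicate block.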

How the results depend on the processing

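Of 4830 values of 124 named genes under the alternatives, 4480 kept direction and side of the threshold, 277 lost the call, 64 gained it and 9 changed sign. The 528 calls (105 higher, 423 lower) became 295 (29 and 266) with Bonferroni adjustment, 84 (22 and 62) past 2-fold and 4436 (1955 and 2481) with no fold limit. They became 242 (100 and 142) with the gastrocnemius library score as a covariate and 246 (96 and 150) with a score from the diaphragm. This diaphragm score came from the axis taken with 18-month replicate 11, which scored -64.6 on it. That axis held 20.6% of the spread and had an r of -0.65 with the last-step change across genes. The share of higher genes among calls was 19.9%, against 9.83% with Bonferroni adjustment and 41.3% and 39.0% with the scores. Other tests, scalings, filters and weights gave 431 to 651 calls. Leaving out 1 library gave 453 (without 27-month replicate 0) to 627 calls (without 27-month replicate 6), with 90 to 114 higher and 358 to 520 lower. The replicate block gave 461 calls. The replicate numbers did not pair the libraries, since same-numbered libraries had correlations of -0.31 to 0.214, and 2 of 12 correlated best with their own number.

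Differences from the gastrocnemius, soleus and tibialis anterior (413, 459 and 448) became 60, 109 and 42 with Bonferroni adjustment and 98, 176 and 142 past 2-fold. With the library score as a covariate 274 differed from the gastrocnemius, with only 24 and 27 months in the fit 303 from the soleus, with library weights 795 from the soleus and 821 from the tibialis anterior, and with total-count scaling 875 from the tibialis anterior. The replicate block gave 576, 411 and 514.

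Changes near 0 turned sign. C1qc went to -0.030 and -0.019 with the gastrocnemius and diaphragm scores and Fbxo32 to 0.13 with each. Leaving out 1 library moved Fbxo32 between -0.048 and 0.0043 and Myh4 between -0.026 and 0.26. The causes were not tested. Of the called genes, 112 had a mean level under 0 log2 CPM, where counts limit precision.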

Other observations

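Some lists gave calls that belong to none of the groups described. Chac1, a gene of glutathione breakdown, was the 1 called of 16 genes of the integrated stress response (0.87, adjusted p = 0.0317, limma-voom), and its call was lost in 7 of 24 fits without 1 library, with 0.74 without 27-month replicate 11 as the lowest value, in edgeR (0.76, adjusted p = 0.0605) and with the library score as a covariate (0.91, adjusted p = 0.0675). Hmox1, which breaks down haem, was called higher among 11 iron genes (0.61, adjusted p = 8.34e-04), and was under 1.5-fold in 6 such fits, down to 0.51 without 27-month replicate 0, and with the score as a covariate (0.43). Among 20 lipogenic and lipid droplet genes, G0s2, an inhibitor of fat breakdown, was called lower beside Pnpla3 (-0.64, adjusted p = 0.0334), with 6 calls lost and -0.54 without 27-month replicate 3, and G0s2 was not called in edgeR (-0.53, adjusted p = 0.0812) or DESeq2 (-0.53, adjusted p = 0.0773). Retn, the resistin gene of fat cells, was the 1 called of 14 adipocyte markers (-0.75, adjusted p = 0.0229), and lost its call without 27-month replicate 0 (-0.66). Ccl2, a chemokine gene that draws monocytes, was called lower among 28 chemokine and cytokine genes (-0.63, adjusted p = 0.0253), with 6 calls lost and -0.53 without 27-month replicate 1, and Ccl2 was not called in edgeR (-0.58, adjusted p = 0.0764), DESeq2 (-0.56, adjusted p = 0.082) or with the score as a covariate (-0.58, adjusted p = 0.0895).

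No gene was called among 19 immediate early genes (median change 0.06), 19 complement genes, 23 cell cycle genes (-0.05), 14 genes of ketone body and branched-chain metabolism (0.13), 11 polyamine enzymes (0.05), 20 regulators of mitochondrial biogenesis (-0.04), 12 fibroblast markers (-0.04) and 8 red cell markers (-0.18). Of 19 calcium handling genes Trdn and Sln were called, of 16 satellite cell and myogenic genes Myog, of 24 citric acid cycle and pyruvate genes Pdk4, and of 23 antioxidant genes Mt1a, Mt2A and Hmox1.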
